A study of Rattus norvegicus with 30 samples.

Results

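The 150 genes described here were those with the highest thalamic level relative to the perilesional cortex and the hippocampus in sham-operated rats, out of 26404 genes counted in each region. Counts were scaled to CPM, the count of a gene per 1000000 counts of its library. A gene was ranked by its median thalamic CPM over the 5 sham rats plus 0.5, divided by the larger of its cortical and hippocampal medians plus 0.5. Its thalamic median had to be at least 5 CPM, which 11472 genes reached, and 2 genes were left out of the ranking. The levels in sham rats therefore chose the list, and they are given below as a description.

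All animals were adult male Sprague-Dawley rats that received anaesthesia and a craniectomy over the left parietal lobe. The 5 rats with traumatic brain injury (TBI; rats 6 to 10) received a lateral fluid percussion injury (FPI), a brief fluid pressure pulse onto the intact dura, with an impact of 3.32 atm according to the sample labels. The 5 sham rats (rats 1 to 5) had the same surgery without the pulse, and the study set the groups side by side in each region to find changes that last into the chronic phase. Poly-A RNA of each region was sequenced at 3 months after the operation, 1 library per rat and region, which gave 30 libraries from 10 rats. The hippocampal tissue was dissected as the dentate gyrus with the adjoining part of CA3.

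The thalamus is the relay of the forebrain. Its excitatory neurons receive sensory, motor and limbic input and project to the cortex, the cortex projects back, and the inhibitory reticular nucleus gates the exchange. Thalamic relay neurons lose their targets when the cortex above is damaged, and secondary degeneration and gliosis of the thalamus are known late features of lateral FPI. The tables identify genes by Ensembl identifiers without names, and the reference table of names matched 0 of 26404 of them. What each of the 150 genes does is therefore not stated, the label of the thalamic samples could not be checked against marker genes, and all but 4 members are referred to by their rank in the list.

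Several libraries need to be named before the results. The total was 21992859 to 31799879 counts per library. In the hippocampus, the 10 most counted genes took 44.1% and 40.9% of the counts in sham rats 4 and 5, against 9.95% to 16.4% in the other 8 hippocampal libraries. Of 17 genes whose levels in rats 3 and 8 differed by over 2 on the log2 scale in the same direction in cortex and thalamus, 5 differed by over 1 in the opposite direction in the hippocampus and 0 in the same direction, so the hippocampal libraries labelled rats 3 and 8 go against their labels at those genes. None of those 17 genes was a member of the list. The study's methods give another instrument and longer reads for the thalamic libraries, whereas the labels give 1 instrument for all, so region and sequencing cannot be told apart where thalamic levels are compared with those of the other regions. The study also set aside 2 hippocampal control libraries for low alignment, without saying which, and all 10 hippocampal libraries were tested here.

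In sham rats the ratio ran from 6.19 to 138, with a median of 10.2. The median thalamic level ran from 5.04 to 1509 CPM, with 24 members above 100 CPM and 56 below 20 CPM. The 10 most abundant members held 51.2% of the summed level of the list. Outside the thalamus the members were scarce: their median level was 1.96 CPM in the cortex and 1.21 CPM in the hippocampus, and 56 members lay under 1 CPM in both. The cortex was the second region for 103 members and the hippocampus for 47. At the edge of the list, the last 3 members had ratios of 6.27, 6.25 and 6.19, and the next 3 genes had 6.18, 6.16 and 6.11, so the limit falls within a continuous series.

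The member of rank 1 shows what the top of the list looked like. Its thalamic level was 72.4, 91.3, 83.0, 79.0 and 121 CPM in sham rats 1 to 5, while its cortical level lay between 0.0373 and 0.139 CPM and its hippocampal level between 0 and 0.203 CPM. In TBI rats 6 to 10 its thalamic level was 80.9, 27.8, 29.9, 82.6 and 57.9 CPM. Rats 6 and 9 lay within the sham range and the other 3 TBI rats below it, and the difference did not pass the test (log2 fold change -0.70 ± 0.29 SE, adjusted p = 0.165, edgeR's quasi-likelihood test). By contrast, the most abundant member (rank 116) was also well represented elsewhere, at 135 to 188 CPM in the sham cortex and 104 to 204 CPM in the sham hippocampus.

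The entries of the list were not all separate signals. Of the 150 members, 21 fell into 8 sets within which the thalamic counts of linked members kept the same ratio within 1.2-fold across all 10 libraries (mean ratio from 0.5 to 2), the largest set holding 5 members. In 5 of the pairs linked in this way the ratio ran no wider than from 0.994 to 1.03, for example 1 to 1.001 for ranks 88 and 89 and 1 to 1.01 for ranks 58 and 59. Genes of 1 set may be copies or overlapping models that share reads, and their separate counts are uncertain. Keeping 1 member of each set left 137 members.

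The TBI rats took no part in choosing the list, so thalamic enrichment could be tested in them. In TBI rats, 146 of the 150 members were higher in the thalamus than in the cortex (32.3% of 17308 genes tested were) and 150 of 150 were higher than in the hippocampus (32% of 17267 genes), with edgeR's quasi-likelihood test and an adjusted p under 0.05 as in every count below. The median log2 differences were 3.29 and 3.67. The same counts, 146 and 150, were found with the rat as a block. For 143 members every TBI thalamic library lay above every TBI cortical and hippocampal library (19% of 17024 genes), and 115 of the 150 members (76.7%) would also have been chosen had the rule been run on the TBI rats.

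On the plain CPM scale the ratio was lower in TBI rats. The median ratio over members was 7.84 in TBI rats, and 128 of 150 members had a lower ratio there than in sham rats, as had 82.2% of the 11472 genes that reached the thalamic minimum. Within single rats the median ratio over members was 9.64, 9.89, 10.3, 10.8 and 10.4 in sham rats 1 to 5 (mean 10.2 ± 0.446 SD, n = 5) and 7.49, 7.02, 7.09, 7.34 and 8.06 in TBI rats 6 to 10 (mean 7.40 ± 0.416 SD, n = 5). The groups did not overlap on this scale. In plain CPM, however, the median of all genes was higher in TBI rats by 0.19 on the log2 scale in the cortex and 0.41 in the hippocampus but by 0.02 in the thalamus, which lowers the ratio of any gene. After scaling by trimmed means (TMM) over all 30 libraries, the median ratio was 8.41 in sham rats and 7.22 in TBI rats, 108 of 150 members were lower in TBI rats (55.9% of the same genes), and the rats overlapped (7.44 to 9.12 in sham rats, 6.21 to 7.64 in TBI rats). A lower ratio in rats that did not choose the list is favoured by the choice itself, so no test is given for it. The range in TBI rats went from 1.86 for the member of rank 79 to 92.2 for that of rank 1.

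**Figure D1:**
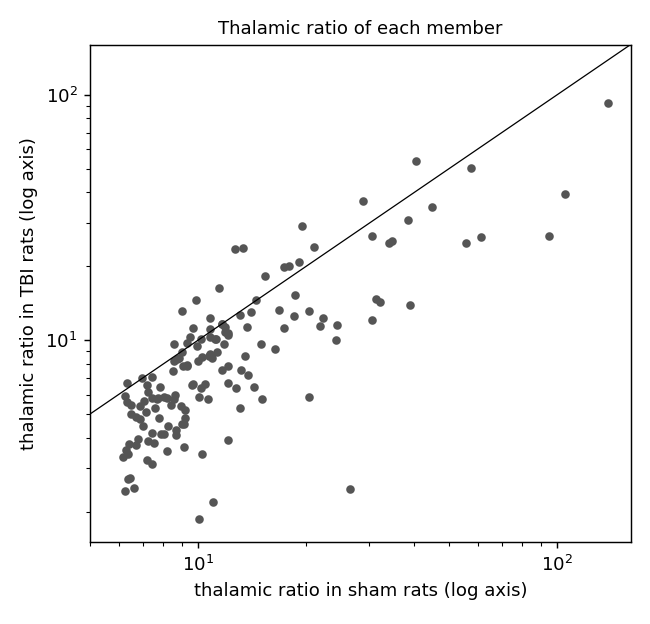
Thalamic ratio of each of the 150 members in TBI rats (vertical, log axis) against sham rats (horizontal, log axis), each from group medians of CPM with 0.5 added; the line marks equal ratios. On this plain CPM scale 128 of 150 points lie below the line, as do 82.2% of all genes at the thalamic minimum, and the lowest point in TBI rats has a ratio of 1.86.

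In the thalamus, TBI lowered a part of the list. All 150 members were tested, and 28 fell after TBI (1.85% of the 16605 genes tested fell) while 2 rose (3.77% of genes rose). The log2 fold change lay below 0 for 102 members, with a median of -0.27 over the list against -0.00 over all genes tested. In a tissue homogenate, fewer cells of a type and less RNA per cell cannot be told apart. The sham libraries of this comparison also chose the list, which favours falls in the thalamus. When the list was chosen on the TBI rats instead, which favours rises, 23 of its 150 members fell and 4 rose, and the median was -0.10. Chosen on all 10 rats, 31 fell and 1 rose.

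The 28 falls were moderate, from 0.48 to 1.33 on the log2 scale with a median of -0.73, and 6 of them exceeded 1. Their adjusted p values lay close to the threshold, between 0.0204 and 0.0474. Every TBI library lay below every sham library for 24 of the 150 members, 21 of them among the 28, and for 2.65% of all genes tested. By place in the list, 14 of ranks 1 to 50 fell (median of all 50 log2 fold changes -0.56), against 6 of ranks 51 to 100 (-0.11) and 8 of ranks 101 to 150 (-0.27). By thalamic level, 16 of the 50 most abundant members fell (48.7 to 1509 CPM), 8 of the next 50 and 4 of the 50 least abundant (5.04 to 17.3 CPM). Of all genes tested at the same levels, 4.99%, 2.06% and 0.746% fell. Rank and level come from the sham libraries that are also the baseline of the fall, so this order is a description only.

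**Figure D2:**
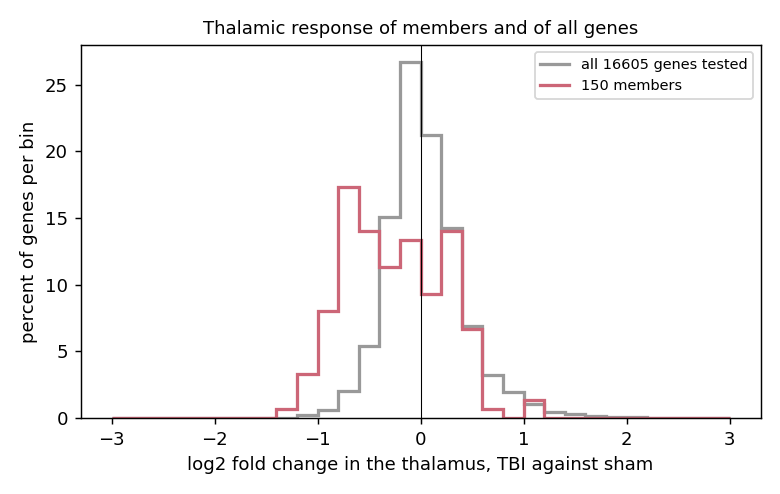
Distribution of log2 fold changes in the thalamus (TBI against sham, bins of 0.2 on the log2 scale) for the 150 members and for all 16605 genes tested, as a percent of each set. The members are spread to lower values, with a median of -0.27, and all genes centre on a median of -0.00.

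The largest fall was that of the member of rank 47. Its thalamic level was 4.45, 16.1, 8.31, 5.58 and 8.08 CPM in sham rats 1 to 5 and 3.92, 2.58, 3.60, 4.14 and 3.00 CPM in TBI rats 6 to 10 (log2 fold change -1.33 ± 0.31 SE, adjusted p = 0.0308, edgeR). Every TBI rat was below every sham rat, and sham rat 2 stood high. The most abundant member, of rank 116, had 1407, 1156, 1597, 1509 and 1700 CPM in sham rats and 1210, 542, 715, 972 and 979 CPM in TBI rats (-0.76 ± 0.19 SE, adjusted p = 0.0361, edgeR). Here TBI rat 6 lay above sham rat 2, so the groups overlapped, whereas rats 7 to 10 were below every sham rat. Rank 2 went from a range of 93.8 to 139 CPM in sham rats to 30.1 to 92.5 CPM in TBI rats (-1.06 ± 0.23 SE, adjusted p = 0.0278), and rank 74 from 39.9 to 55.6 CPM to 11.3 to 30.1 CPM (-1.17 ± 0.21 SE, adjusted p = 0.0204).

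The fall differed among the TBI rats. All 28 fallen members were below every sham library in rats 7, 8, 9 and 10, and 21 of them were in rat 6. The call itself favours such separation, and the share among all fallen genes was not counted. Relative to the sham mean, the median log2 level of the 28 was -0.32 in rat 6, -1.19 in rat 7, -0.96 in rat 8, -0.60 in rat 9 and -0.72 in rat 10, and the lowest value was in rat 7 for 20 members, in rat 8 for 7 and in rat 10 for 1. Over the whole list the median difference was -0.16, -0.39, -0.36, -0.22 and -0.28 in rats 6 to 10, and -0.15, -0.02, 0.11, -0.04 and 0.12 in sham rats 1 to 5. Rat 6 was thus next to sham rat 1 and the other TBI rats were lower.

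The number of calls rested on single libraries. Without rat 6, whose thalamic library lies near the sham libraries, 48 members fell (6.52% of genes) and 4 rose (7.99%), and all 28 falls were among the 48. No member passed without rat 3, 5, 7 or 8 (edgeR, smallest adjusted p between 0.0530 and 0.0607), where 56 to 60 members were lower and 3 to 14 higher at an unadjusted p under 0.05. Over all genes tested in those 4 fits, 7.93% to 9.13% were lower and 9.91% to 10.4% higher at that p. Without rat 10, 1 member fell and 1 rose, and without rats 4 and 9, 13 and 18 fell. All 28 members kept a log2 fold change below 0 in each of these fits. Their median was -0.71, -0.70, -0.62 and -0.66 without rats 3, 5, 7 and 8, against -0.73 with all libraries. DESeq2 with all libraries called 51 members lower (4.54% of genes) and 3 higher (6.37%), the 28 among the 51.

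In the perilesional cortex, some members rose and others fell. Of the 150, 124 passed the filter and were tested and 26 were not. The filter asks for about 0.356 CPM in 5 libraries, which 11 of the 124 reached only through the TBI libraries and 2 only through the sham libraries. After TBI 25 members rose (20.2%, against 14.2% of the 17185 genes tested) and 15 fell (12.1%, against 11.6% of genes). The share that fell was thus close to that of all genes. The median log2 fold change was 0.18 over the 124 tested members, 0.15 over all 150 without a filter and -0.01 over all genes tested. Of the 25, 6 (ranks 18, 19, 39, 90, 101 and 141) had passed the filter only through the TBI libraries, which selects for a rise. Leaving out the 13 members that passed through 1 group, 19 of 111 rose (17.1%) and 15 fell (13.5%), against 13.2% and 12.1% of genes treated alike, and the median was 0.12. A rise in the cortex is also favoured by the choice of the list. When the list was chosen on all 10 rats, 20 members rose and 21 fell, and when it was chosen on the TBI rats, 19 rose and 22 fell, so the excess of rises over falls did not hold under either choice. Without rat 1, 9 members fell, and the share of all genes in that fit is not given.

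These fold changes are relative to TMM scaling within the region. Because the median of all genes in plain CPM was higher in TBI rats, CPM values given beside a cortical or hippocampal fold change therefore show a larger rise than the fitted value does.

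The cortical rises differed widely in size. The 25 rises ran from 0.33 to 3.99 on the log2 scale with a median of 1.02, and 13 exceeded 1. Without the 6 members that passed the filter only through the TBI libraries, the 19 others ran from 0.33 to 2.15 with a median of 0.94, and 9 exceeded 1. The 15 falls ran from -0.22 to -1.25 with a median of -0.56. The largest rise was in the member of rank 18, whose cortical level was 0.316, 0.112, 0.106, 0.209 and 0.448 CPM in sham rats 1 to 5 and 5.19, 5.13, 3.29, 3.25 and 5.599 CPM in TBI rats 6 to 10 (log2 fold change 3.99 ± 0.31 SE, adjusted p = 9.27e-07, edgeR). The lowest TBI rat stood far above the highest sham rat. This member is one of the 6 that entered the test through the TBI libraries alone. Without a filter on low counts, 19 members rose and 11 fell in all, and shares of all genes are not given for that fit. Ranks 19 and 39 of the 6 lost their call there, whereas rank 18 had an adjusted p of 2.09e-08 (edgeR). In the thalamus the same gene had 18.9 to 25.9 CPM in sham rats and 8.68 to 20.1 CPM in TBI rats (-0.67 ± 0.20 SE, adjusted p = 0.0671), and its ratio went from 26.4 in sham rats to 2.47 in TBI rats. In the hippocampus it had 0.203 to 1.26 CPM in sham rats and 0.349 to 1.15 CPM in TBI rats (0.09 ± 0.40 SE, adjusted p = 0.971).

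Other cortical rises reached high levels. The cortical range of the member of rank 138 was 29.2 to 41.2 CPM in sham rats and 115 to 171 CPM in TBI rats (log2 fold change 1.67 ± 0.11 SE, adjusted p = 1.94e-07, edgeR), and that of rank 111 was 24.0 to 39.7 CPM and 58.9 to 95.6 CPM (1.15 ± 0.17 SE, adjusted p = 0.000425). Neither range overlapped between groups. The member of rank 79 had 3.24, 3.50, 2.16, 1.85 and 3.51 CPM in the cortex of sham rats and 16.2, 13.1, 10.01, 8.797 and 13.1 CPM in that of TBI rats (1.87 ± 0.21 SE, adjusted p = 3.74e-05). With a thalamic level of 15.9 to 47.9 CPM in TBI rats, it had the lowest ratio there.

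Some members were high in the cortex of single rats of either group. The member of rank 93 had 225 CPM in rat 6, 64.5 CPM in rat 9 and 39.9 CPM in sham rat 3, against 0.298 to 7.74 CPM in the other 7 cortical libraries. Members with the same order were sought: rat 6 highest, then rat 9, then rat 3. Each of the 3 libraries had to lie above 1.5 times every other cortical library. Ranks 54, 62, 94 and 121 met this. The order is thus the condition of the search, and how many of all genes meet it was not counted. Ranks 62, 93, 94 and 121 were the 4 members not called higher in the thalamus than in the cortex of TBI rats. Together they held 387, 105 and 66.7 CPM in the cortex of rats 6, 9 and 3, and 4.58 to 16.4 CPM in the others. None of the 5 was called in the cortex after TBI, where ranks 62 and 94 reached the minimum in too few libraries to be tested, and the list's summed cortical level in rat 6 was 1725 CPM with those 4 and 1338 CPM without them.

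Side by side, the thalamic and cortical responses of the 124 members tested in both regions fell into a few patterns. Both comparisons share their rats, though not their libraries, and both share sham libraries with the rule. Of the 28 members that fell in the thalamus, 9 also fell in the cortex, 4 rose there, 13 passed in neither direction and 2 were not tested. Of all 304 genes that fell in the thalamus and were tested in the cortex, 64.1% also fell there and 2.3% rose. Both members that rose in the thalamus also rose in the cortex, as did 81.2% of 622 genes. Of the 25 members that rose in the cortex, 19 had a thalamic log2 fold change below 0. The share was 7.91% of the 2351 genes that rose in the cortex and were tested in the thalamus. The choice of the list favours this combination. The 19 include all 6 members that passed the cortical filter only through the TBI libraries. The share of genes was not recomputed without genes of that kind.

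**Figure D3:**
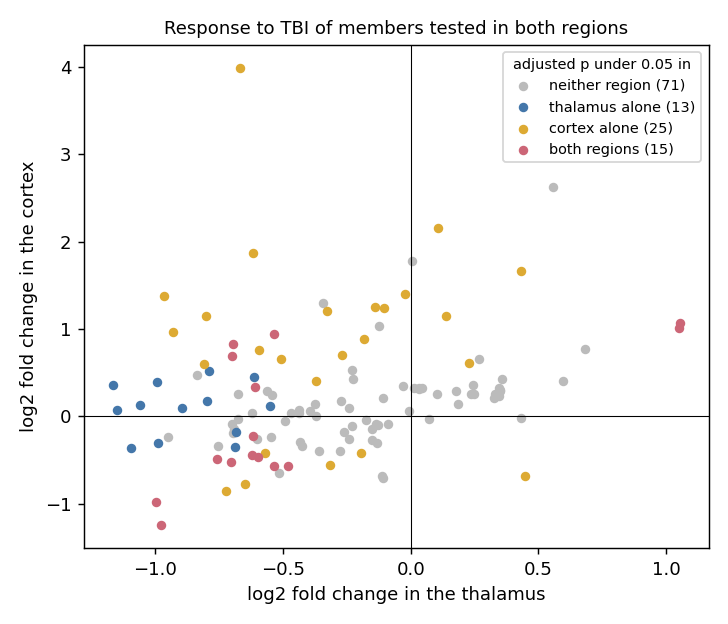
Log2 fold change after TBI in the cortex (vertical) against the thalamus (horizontal) for the 124 members tested in both regions, coloured by where the adjusted p was under 0.05. Of the points, 48 lie to the left and above 0, 44 to the left and below 0, 29 to the right and above 0 and 3 to the right and below 0, and the point at the top is the member of rank 18.

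The 2 members that rose in both regions were ENSRNOG00000026168 (rank 86) and ENSRNOG00000032875 (rank 149). In the thalamus, ENSRNOG00000026168 had 25.01, 22.5, 17.99, 25.1 and 18.6 CPM in sham rats and 26.5, 60.2, 51.1, 50.5 and 41.2 CPM in TBI rats (means 21.9 ± 3.41 and 45.9 ± 12.8, SD, n = 5; log2 fold change 1.05 ± 0.19 SE, adjusted p = 0.0213, edgeR). Rat 6 lay just above the sham rats and the other TBI rats far above them. In the cortex it had 1.78, 1.64, 2.23, 2.16 and 1.93 CPM in sham rats and 6.29, 4.23, 4.24, 4.43 and 4.65 CPM in TBI rats (1.07 ± 0.13 SE, adjusted p = 7.89e-05, edgeR), where rat 6 was the highest. ENSRNOG00000032875 had 27.6, 26.4, 20.7, 25.7 and 19.3 CPM in the sham thalamus and 29.7, 68.6, 57.5, 53.0 and 41.9 CPM in the TBI thalamus (1.05 ± 0.20 SE, adjusted p = 0.0217, edgeR). Its cortical level went from 3.43 to 4.29 CPM in sham rats to 7.47 to 11.3 CPM in TBI rats (1.02 ± 0.10 SE, adjusted p = 1.10e-05). The thalamic counts of the pair kept a ratio between 0.851 and 0.982 in all 10 libraries, so they form 1 of the sets above and may share reads. In the hippocampus neither passed the test, with log2 fold changes of 0.37 and 0.39.

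Among the 9 members that fell in both regions, ENSRNOG00000012789 (rank 46) and ENSRNOG00000003192 (rank 21) had the largest summed falls. ENSRNOG00000012789 had 59.9, 42.9, 76.0, 55.4 and 71.9 CPM in the sham thalamus and 40.6, 28.0, 19.4, 34.0 and 36.0 CPM in the TBI thalamus (means 61.2 ± 13.3 and 31.6 ± 8.20, SD, n = 5; log2 fold change -0.98 ± 0.19 SE, adjusted p = 0.0217, edgeR). In the cortex it had 4.10, 3.24, 5.85, 3.795 and 5.13 CPM in sham rats and 1.51, 2.23, 1.64, 2.54 and 2.83 CPM in TBI rats (-1.25 ± 0.20 SE, adjusted p = 0.000405, edgeR). The groups did not overlap in either region. ENSRNOG00000003192 had 43.0, 48.3, 46.2, 36.4 and 47.9 CPM in the sham thalamus and 33.5, 14.3, 13.5, 24.4 and 27.2 CPM in the TBI thalamus (-0.999 ± 0.22 SE, adjusted p = 0.0271, edgeR), again without overlap. Its cortical level was low throughout, at 0.313 to 0.930 CPM in sham rats and 0.215 to 0.447 CPM in TBI rats (-0.98 ± 0.31 SE, adjusted p = 0.0310), where the groups overlapped. This cortical call was lost without rat 3, 5 or 9, with log2 fold changes of -0.86, -0.77 and -0.84, and the thalamic call of each of the 4 named members was lost without rat 3, 5, 7 or 8. Without rat 10 it was lost for all but ENSRNOG00000032875. With any 1 rat left out, the thalamic log2 fold change kept its direction and was at least 0.95 for ENSRNOG00000026168 and 0.92 for ENSRNOG00000032875, and at most -0.86 for ENSRNOG00000012789 and -0.87 for ENSRNOG00000003192.

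**Figure D4:**
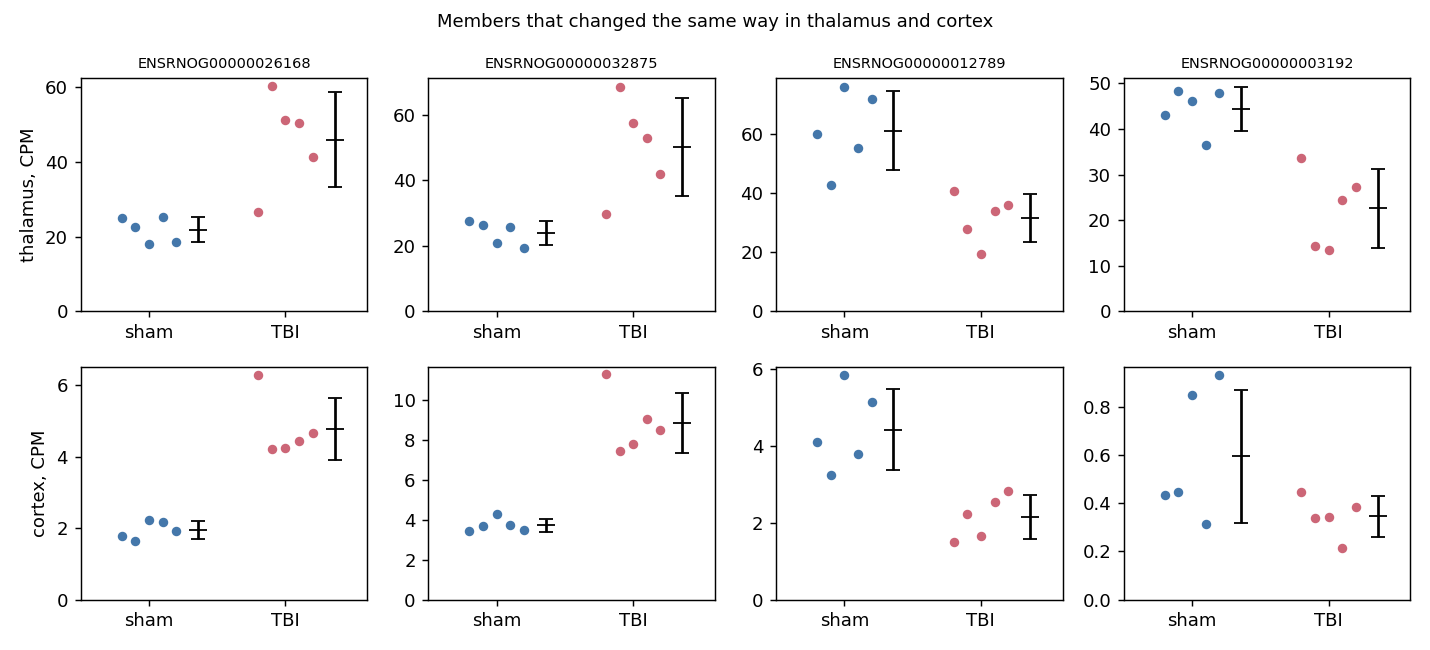
CPM of the 4 members named by identifier in the thalamus (upper row) and cortex (lower row) of the 5 sham and 5 TBI rats; points are single libraries in order of rat number, horizontal marks with bars are means ± SD, and every axis starts at 0. The first pair rose and the second pair fell in both regions, and rat 6, the first TBI point, lies nearest the sham rats in the thalamus in each upper panel.

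The 4 members that fell in the thalamus and rose in the cortex had ranks 15, 48, 50 and 120. Rank 15 was abundant in the thalamus, with 377, 404, 482, 416 and 554 CPM in sham rats and 373, 241, 276, 346 and 328 CPM in TBI rats (log2 fold change -0.54 ± 0.14 SE, adjusted p = 0.0474, edgeR). In the cortex it had 11.6, 12.2, 17.97, 11.8 and 14.5 CPM in sham rats and 50.8, 22.6, 23.8, 30.04 and 26.7 CPM in TBI rats (0.94 ± 0.15 SE, adjusted p = 0.000562). The TBI libraries were all below the sham libraries in the thalamus and all above them in the cortex. Ranks 48, 50 and 120 fell by 0.61, 0.70 and 0.69 in the thalamus and rose by 0.33, 0.69 and 0.83 in the cortex on the log2 scale.

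Whether the response differed between regions was tested directly, as the interaction of region and treatment. Between cortex and thalamus it differed for 15 of 150 members, in each case with the more positive response in the cortex (0.372% of 17745 genes passed with a more positive and 0.0676% with a more negative cortical response). Of the 15, 14 had a log2 fold change above 0 in the cortex and below 0 in the thalamus. The differences ran from 0.83 to 4.71 on the log2 scale, the largest in rank 18 (4.71 ± 0.40 SE, adjusted p = 1.26e-06, edgeR). Ranks 15, 48, 50 and 120 were all among the 15. With the rat as a block 13 members passed (0.276% of genes), of which 11 were among the 15. Without rat 3 the number was 9, and the share of genes in that fit is not given. The direction of these differences is the one that the choice of the list favours.

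In the hippocampus few members moved beyond the spread of the libraries. Of the 150, 122 were tested, 13 of them only through the TBI libraries and 1 only through the sham libraries. In edgeR's quasi-likelihood test 0 members rose and 0 fell (0% of 16963 genes in either direction, smallest adjusted p of a member 0.480). At an unadjusted p under 0.05, 16 members were higher (5.22% of genes) and 5 lower (3.22%). DESeq2 called 0 members in either direction (0.0503% of genes each way), and it gave an adjusted p to 93 of them. The median log2 fold change was 0.04 over the tested members and -0.01 over all genes. The 28 members that fell in the thalamus had a hippocampal median of 0.12, with 7 of the 24 tested below 0.

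Leaving out the libraries in doubt gave 0 to 3 calls. Without sham rats 4 and 5, in which the list summed to 464 and 485 CPM against 826 to 887 CPM in the other sham rats, 0 members passed. Without rats 3 and 8, 3 members rose (1.45% of genes) and 0 fell (0.1%). They were ranks 6, 101 and 138, with log2 fold changes of 0.61 ± 0.14, 1.47 ± 0.29 and 0.72 ± 0.16 SE and adjusted p values of 0.0454, 0.0205 and 0.0475 (edgeR). Rank 101 passed the filter only through the TBI libraries, with 1 of 4 sham libraries at the minimum. Ranks 101 and 138 also rose in the cortex, by 1.40 and 1.67, and rank 101 had entered that test in the same way.

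Compared with the hippocampus, the cortical response differed for 4 of 130 members (3.04% of 17688 genes differed). It was more positive in ranks 18, 79 and 138 and more negative in rank 116, whose cortical level fell from 135 to 188 CPM in sham rats to 113 to 151 CPM in TBI rats. With the rat as a block 11 members passed (5.92% of genes), and with single rats left out 1 to 7, for which shares of genes are not given. The count was 7 without rat 1, 5 or 7, 2 without rat 2 or 8 and 1 without rat 3. The block takes the hippocampal labels of rats 3 and 8 as given, and no interaction was fitted without both. Between thalamus and hippocampus, 0 of 150 members passed in edgeR (0% of 17617 genes), while 51 members (34.0%) had an unadjusted p under 0.05 against 13.4% of genes and DESeq2 called 15 (0.801% of genes). Without rat 6, 25 members passed (4.81% of genes), 23 of them with the more negative response in the thalamus.

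Seen by library, the median of the list was lower in the thalamus of TBI rats. The median difference from the sham mean, after TMM scaling, was -0.28 ± 0.10 (SD, n = 5) in the TBI thalamus, against 0.00 ± 0.11 in the sham thalamus. Over the members not called in the thalamus it was -0.02 to -0.15 in TBI rats, within the sham range of -0.18 to 0.11. The same test set these members apart, which favours a small difference. The split therefore cannot show which members account for the lower median. In the cortex the median difference of the whole list was 0.08 ± 0.03 in TBI rats and -0.00 ± 0.05 in sham rats, and sham rat 1 lay within the TBI range. In the hippocampus it was 0.03 ± 0.03 in TBI rats and 0.01 ± 0.03 in sham rats, and the groups overlapped. On the plain CPM scale the list took 1.09% to 1.36% of thalamic counts in sham rats and 0.748% to 1.07% in TBI rats, without overlap. The sham libraries chose the list, which favours a lower median and a lower share in the TBI thalamus.

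**Figure D5:**
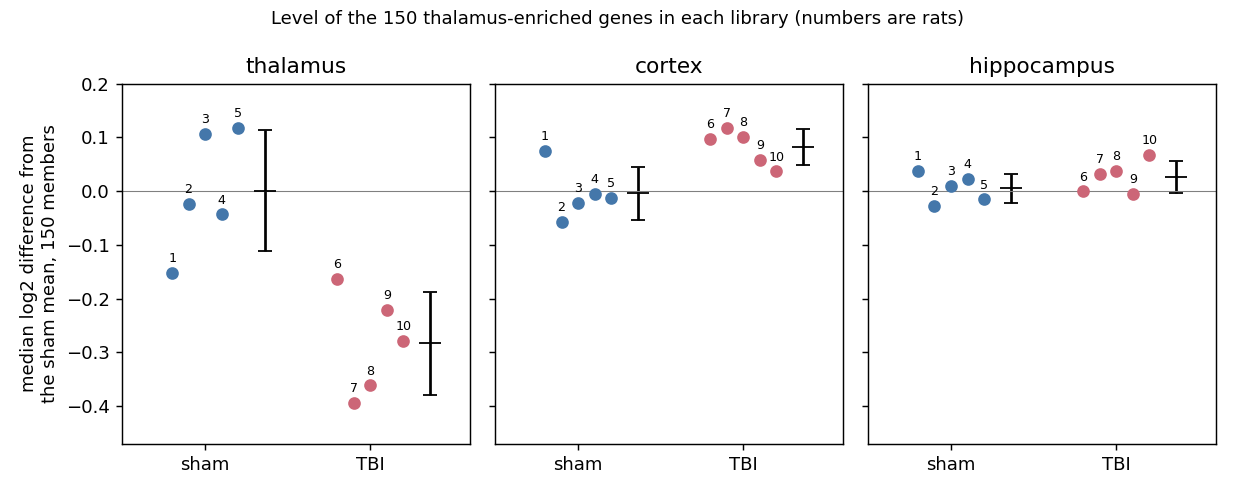
Median log2 difference of the 150 members from their sham mean in each library (TMM-scaled CPM with 0.5 added), by region and group; points are libraries numbered by rat, and marks with bars are means ± SD of 5 libraries. In the thalamus all TBI libraries lie below the sham libraries, rat 6 by the least, whereas in the cortex and hippocampus the groups overlap.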

How the data were processed

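Reads were aligned by the authors to Rnor_5.0 with STAR. They deposited 1 table of raw counts for each region, with Ensembl genes as rows. The counting tool and its use of strand are not given in the sources used here. Treatment, region and rat came from the sample labels. All columns matched a sample (0 were unused).

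The members, gene lists and tests were chosen with earlier results of these data known. CPM used the column sum of a library. In each region, genes were kept by filterByExpr (minimum count 10), scaled by TMM and tested with edgeR 4.0.16 in R 4.3.3 (robust quasi-likelihood test, Benjamini-Hochberg adjustment over all genes tested, threshold 0.05). Differences between regions were tested as the interaction of region and treatment, and enrichment in TBI rats as thalamus against each other region. Alternatives were DESeq2 1.42.0, RLE size factors, no filter, 1 fit for all regions, each rat left out, members chosen on other rats, and other pseudocounts. Keeping 1 member of each set with like counts, and leaving out members that passed the filter through 1 group only, were added after seeing the data.

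Libraries were paired by rat, since each animal gave all 3 regions. Deviations of libraries of 1 rat from their group means had a mean correlation of 0.0574 for cortex and thalamus, 0.111 for cortex and hippocampus and 0.0420 for thalamus and hippocampus. Rats were separate animals, and every pair of libraries in a group differed by more than sampling noise (lowest chi-square per degree of freedom 14.2).

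Members were to be named where a name could be matched: the 20 of largest ratio, the 8 largest rises and falls in each region, members of the fixed functional and cell-type lists, the 5 largest interactions of each pair and the edge of the list. No name matched, so these lists were not run. The 4 identifiers printed (those past the threshold in thalamus and cortex in the same direction, as the pair that rose and the pair with the largest summed falls) and the ranks described were chosen after their values were seen. On counts simulated for the 17185, 16605 and 16963 genes tested in cortex, thalamus and hippocampus, the share of 2-fold changes that edgeR recovered was 96%, 78% and 94%. False calls were 3.52%, 4.29% and 7.84% of its calls.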

Additional observations from a re-analysis of the deposited data

Results flagged for a closer look

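Of 36 groups of 5 libraries looked at (the summed and median level of the list and the 4 members named by identifier, in each region and group), 1 held a library apart from the rest by Dixon's criterion, and chance alone flags about 1 in 20 groups. It was ENSRNOG00000026168 in the cortex of TBI rats, where rat 6 had 6.29 CPM and the other TBI rats 4.23 to 4.65 CPM. The response to TBI differed between cortex and thalamus for 15 of 150 members (0.44% of genes) and between cortex and hippocampus for 4 of 130 members (3.04% of genes), each by a test of the difference itself.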

How the results depend on the processing

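Of 236 values recomputed for the main results under other settings, 189 stayed within the limits set for them, and no median changed its sign. The balance of cortical calls did change, from 25 rises and 15 falls to 20 and 21 with members chosen on all 10 rats and to 19 and 22 with members chosen on TBI rats. In the thalamus, the number of members that fell was 51 with DESeq2 and 55 with 1 fit for all regions (9.96% of genes), and 0 to 48 with single rats left out. The number that rose was 1 and 4 with members chosen on all 10 rats and on TBI rats, 1 with 1 member kept of each set with like counts, and 0 to 4 with single rats left out. The thalamic median was -0.10 with members chosen on TBI rats and -0.37 with 1 member kept of each set.

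The cortical median was 0.12 with DESeq2, 0.11 with 1 fit for all regions, 0.12 and 0.12 with members chosen on all 10 rats and on TBI rats, 0.12 with 1 member kept of each set, 0.12 without the members that passed the filter through 1 group only, and 0.16 to 0.24 with single rats left out. The number that fell in the cortex was then 9 to 13. In the hippocampus 3 members rose without rats 3 and 8, and the median was 0.00703 with members chosen on TBI rats and 0.00122 to 0.0816 with single rats left out. With the replicate block (rat), 11 members differed between cortex and hippocampus against 4 without it (5.92% and 3.04% of genes). With DESeq2 10 did, for which no share of genes is given. The pairing changed no other count by over 1.5 times. DESeq2 called 15 members between thalamus and hippocampus. With single rats left out, the counts were 9 to 21 for cortex and thalamus, 0 to 25 for thalamus and hippocampus and 1 to 7 for cortex and hippocampus. No shares of all genes are given for these fits, except 4.81% for thalamus and hippocampus without rat 6. The median ratio in TBI rats was 9.23 and 5.16 with pseudocounts of 0.1 and 2, and 7.22 with TMM over all 30 libraries. The cause of these shifts was not tested. In the cortex and hippocampus, 26 and 28 members reached the minimum count in too few libraries to be tested, and their responses there are not known.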
